A study of Mus musculus with 9 samples.

Results

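The 10 genes described here are 7 immediate early genes (Fos, Jun, Junb, Egr1, Ier2, Ier3 and Atf3) and 3 Gadd45 genes (Gadd45a, Gadd45b and Gadd45g), measured in mouse liver. They were chosen by gene name: every array probe whose deposited gene name was 1 of these 10 was taken. This gave 13 probes, 9 for the immediate early genes and 4 for the Gadd45 genes, and all 10 genes were among the 17636 gene-level features tested. Livers came from male C57bl/6J mice, 16 weeks old, that had eaten 1 of 3 diets for 12 weeks. The HFD+APS livers were from mice on a high-fat diet holding 40 g of Astragalus polysaccharides (APS) per kg, the HFD livers from mice on that high-fat diet alone (60 kcal% fat), and the chow livers from mice on the control diet. Each group had 3 livers and 1 single-colour Agilent array per liver. The 9 livers had been picked out of 24 mice by their tissue staining and triglyceride results, so p-values measure only the spread between these selected livers.

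Immediate early genes are switched on within minutes of a signal, without new protein being made first, and many of their transcripts are short-lived. Growth factors, cytokines, stress and tissue handling reach them through MAP kinases and the transcription factors SRF, ELK and CREB, and in liver they are known for their burst after partial hepatectomy or injury. Gadd45 proteins are small stress-induced proteins that bind the kinase MAP3K4 and the cell cycle regulators PCNA and p21. Gadd45b is known in mouse liver as an early gene of regeneration and as a target of NF-kB.

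The comparisons asked which of these genes differed between HFD and chow livers, between HFD+APS and HFD livers, and between HFD+APS and chow livers. Of the 10 genes, only Gadd45b passed the test in any comparison (limma, adjusted p under 0.05 over all features). It did so in HFD against chow, where 10.9% of all features passed, and in HFD+APS against chow, where 3.47% did. In HFD+APS against HFD, where 1.5% of all features passed, none of the 10 did. Gadd45b was lower in HFD livers than in chow livers and lower in HFD+APS livers than in chow livers, and both of its probes showed this. Atf3 and Ier2 did not pass the adjusted threshold between HFD+APS and HFD livers, but the livers of the 2 groups did not overlap, as was the case for 24.5% of all features. Gadd45a did not pass between HFD and chow livers, again with no overlap, as for 38.9% of all features. For the other 6 genes the groups overlapped in every comparison, and HFD 3 or chow 1 was often the highest liver.

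The letters on the array show what each value reads. Stretches of 30 bases of the probes follow for the members on which the results turn, 5′ to 3′ on the transcript's strand. Capitals in Gadd45b mark AATAAA, the polyadenylation signal hexamer, and capitals in Junb mark the run of 22 bases that its 2 probes share.
Gadd45b, brighter probe A_52_P1197913: actccaaacatctaaagcaactgtcgagtt
Gadd45b, second probe A_51_P500984: cagagacattccAATAAActcgttaagcct
Junb, brighter probe A_51_P159194: TTCGTGTCTAAAGTCTATTTTAagatgtgt
Junb, second probe A_51_P159201: acacgcacTTCGTGTCTAAAGTCTATTTTA
Ier2, brighter probe A_51_P481325: ttgaagtggctggagaccccgggactggtc
Ier2, second probe A_52_P554555: tctatagtttgaagccaacttagattccgt
Atf3, probe A_52_P452689: ttacaacgtcacacaatgaaggcacaaagt
Gadd45a, probe A_51_P296608: aagaaaactgctaatttaggatggccaggt

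In the mm9 positions that the arrays' annotation gives, the 2 Gadd45b probes lay on the plus strand at chr10:80394367-80394426 (brighter) and chr10:80394890-80394949 (second). The Junb probes overlapped on the minus strand, at chr8:87500843-87500902 and chr8:87500881-87500940, so they are not independent readings of different parts of the transcript. The Ier2 probes were apart on the minus strand, at chr8:87185211-87185245 for the brighter and chr8:87183623-87183681 for the second. The span given for the brighter probe is shorter than its 60 bases, so not all of it is placed there. The second probe was annotated to another transcript record than the brighter. Atf3 was read at chr1:192994547-192994606 and Gadd45a at chr6:66985376-66985435, both on the minus strand, and Gadd45g at chr13:51943733-51943792 on the plus strand. Fos was read at chr12:86817900-86817959 (plus strand), Jun at chr4:94715864-94715923 (minus strand) and Ier3 at chr17:35959528-35959587 (plus strand). Whether each probe lies in an exon or an untranslated region was not determined here, since no genome of that build was used.

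The promoters of 8 of the 10 members were matched by symbol in a table of RefSeq promoters of GRCm38.p6, which holds 32851 windows of 300 bases, 250 before and 50 after the start of a gene. Junb, Atf3, Ier3 and Gadd45a are printed because their highest level was in the same liver, and Gadd45b because it is the gene that passed the test. Capitals mark matches, on either strand, to TATAA (the core bound by TBP), to CCAAT (the box that NF-Y binds), to TGACG (the core of the CRE and ATF site), to GGGCGG (the GC box) and to the NF-kB consensus.
Junb, chr8:84978699-84978998, minus strand: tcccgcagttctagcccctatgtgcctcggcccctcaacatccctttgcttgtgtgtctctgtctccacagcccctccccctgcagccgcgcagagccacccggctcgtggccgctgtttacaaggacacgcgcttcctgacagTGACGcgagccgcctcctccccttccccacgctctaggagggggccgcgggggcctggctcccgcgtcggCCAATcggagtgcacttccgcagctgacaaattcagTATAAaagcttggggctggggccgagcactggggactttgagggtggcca
Atf3, chr1:191183284-191183583, minus strand: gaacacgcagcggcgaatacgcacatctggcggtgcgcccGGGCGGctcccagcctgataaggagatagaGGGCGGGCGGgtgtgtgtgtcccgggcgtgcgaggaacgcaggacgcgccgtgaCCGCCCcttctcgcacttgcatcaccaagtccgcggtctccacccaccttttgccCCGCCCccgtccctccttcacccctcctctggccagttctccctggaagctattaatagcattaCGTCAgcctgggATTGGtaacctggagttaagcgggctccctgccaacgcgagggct
Ier3, chr17:35821463-35821762, plus strand: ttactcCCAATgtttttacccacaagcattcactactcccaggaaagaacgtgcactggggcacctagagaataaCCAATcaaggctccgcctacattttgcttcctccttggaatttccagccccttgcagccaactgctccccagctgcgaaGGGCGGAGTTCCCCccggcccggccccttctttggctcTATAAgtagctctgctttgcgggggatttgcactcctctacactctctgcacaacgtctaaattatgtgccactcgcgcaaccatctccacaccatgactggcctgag
Gadd45a, chr6:67037358-67037657, minus strand: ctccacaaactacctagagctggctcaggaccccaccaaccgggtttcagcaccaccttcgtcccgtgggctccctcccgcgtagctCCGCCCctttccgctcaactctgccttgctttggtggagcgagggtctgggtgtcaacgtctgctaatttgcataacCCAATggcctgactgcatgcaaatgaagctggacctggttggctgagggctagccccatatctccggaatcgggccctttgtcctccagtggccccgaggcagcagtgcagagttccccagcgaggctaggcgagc
Gadd45b, chr10:80929841-80930140, plus strand: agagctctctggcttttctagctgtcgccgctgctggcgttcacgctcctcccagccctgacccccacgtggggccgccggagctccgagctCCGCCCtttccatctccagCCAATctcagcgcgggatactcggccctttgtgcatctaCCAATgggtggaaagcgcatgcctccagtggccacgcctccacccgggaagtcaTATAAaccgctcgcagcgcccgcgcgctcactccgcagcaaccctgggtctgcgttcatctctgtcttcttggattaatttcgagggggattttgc

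CCAAT was in 7 of the 8 member promoters, against 37.4% of all promoters in the table. TATAA was in 5 of the 8 (Fos, Gadd45b, Gadd45g, Ier3 and Junb), against 24.9% of all. GGGCGG was in 6 of the 8, against 35.7%, and 2 of its 5 copies in Atf3 overlap each other. TGACG was in Atf3, Fos and Junb, against 20.8% of all promoters. The NF-kB consensus was matched in Fos and Ier3, against 8.46% of all, and in Ier3 it overlaps a GGGCGG. The member promoters held 54.0% (Ier3) to 65.3% (Junb) G and C, beside a median of 52.7% over all promoters. The part of base content in these counts was not tested. The TATAA of Junb lies at bases 1 to 5 after the start site, and the CCAAT of Atf3 at bases 6 to 10 after it. A match is a description of these letters in this window and not a binding site.

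Levels below are log2 processed signals relative to the 75th percentile of the same array, so 0 is that percentile, and a gene's level is that of its brighter probe. Levels of different genes come from different probes and are not compared with each other. The plot of levels liver by liver shows all 10 members.

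**Figure D1:**
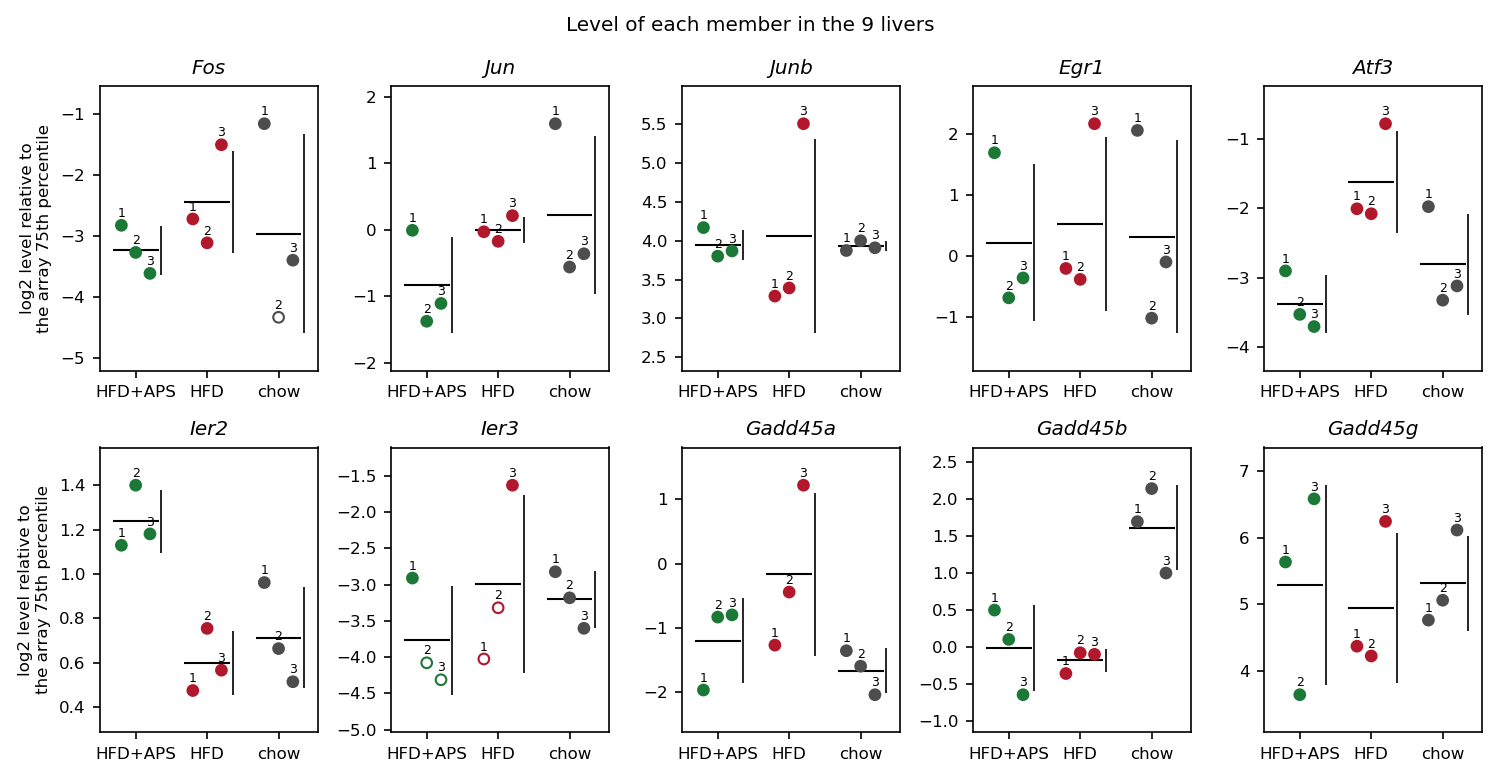
Each panel plots the log2 level of 1 gene relative to the array's 75th percentile (vertical axis) in HFD+APS, HFD and chow livers, with the replicate number above each point, the mean as a line and the SD as a bar (3 livers each). Open points were not well above background; the 3 chow points of Gadd45b lie above all 6 points of the other diets, while the point of HFD 3 stands highest for Junb, Egr1, Atf3, Ier3 and Gadd45a.

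Gadd45b had levels of 0.50, 0.10 and -0.65 in HFD+APS livers, of -0.36, -0.08 and -0.10 in HFD livers, and of 1.70, 2.14 and 1.0 in chow livers. All 6 livers of the high-fat diets were below all 3 chow livers, with a gap of 0.50 between the highest of the 6 and the lowest chow liver, while HFD+APS and HFD livers overlapped. The group means were -0.02 ± 0.58 in HFD+APS livers, -0.18 ± 0.16 in HFD livers and 1.61 ± 0.58 in chow livers (SD, n = 3 each). Gadd45b fell by 1.79 ± 0.35 (SE) on the log2 scale in HFD livers relative to chow livers, which is 3.46-fold lower (95% interval of the log2 change -2.58 to -1.0, limma adjusted p = 0.0214 over all features). In HFD+APS livers it fell by 1.63 ± 0.35 relative to chow livers, or 3.09-fold lower (interval -2.42 to -0.84, limma adjusted p = 0.0465). Between HFD+APS and HFD livers the log2 difference was 0.16 ± 0.35, with an interval of -0.63 to 0.96 (limma adjusted p = 0.841). In whole liver, fewer cells of a type and less RNA per cell cannot be told apart.

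The second Gadd45b probe, which ends near the polyadenylation signal, gave the same order of groups. Its levels were -0.09, -0.15 and -1.21 in HFD+APS livers, -0.71, -0.70 and -0.56 in HFD livers, and 1.68, 1.81 and 0.91 in chow livers. Again every chow liver was above every liver of the other diets. In a limma fit over all kept probes this probe fell by 2.12 ± 0.33 on the log2 scale in HFD livers relative to chow livers (adjusted p = 0.0128) and by 1.95 ± 0.33 in HFD+APS livers relative to chow livers (adjusted p = 0.0310). The brighter probe had adjusted p = 0.0220 and 0.0501 for these comparisons in that fit.

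All chow arrays were on 1 slide and no HFD or HFD+APS array was on it, so chow diet and slide cannot be told apart. The Gadd45b call between HFD and chow livers was lost when chow 1, chow 2, HFD 1, HFD 2 or HFD 3 was left out (log2 change -2.10 to -1.53, adjusted p up to 0.0699 over 9 fits), and that between HFD+APS and chow livers was lost in 8 of 9 fits, all but the one without HFD+APS 1 (-1.93 to -1.31, adjusted p up to 0.145).

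**Figure D2:**
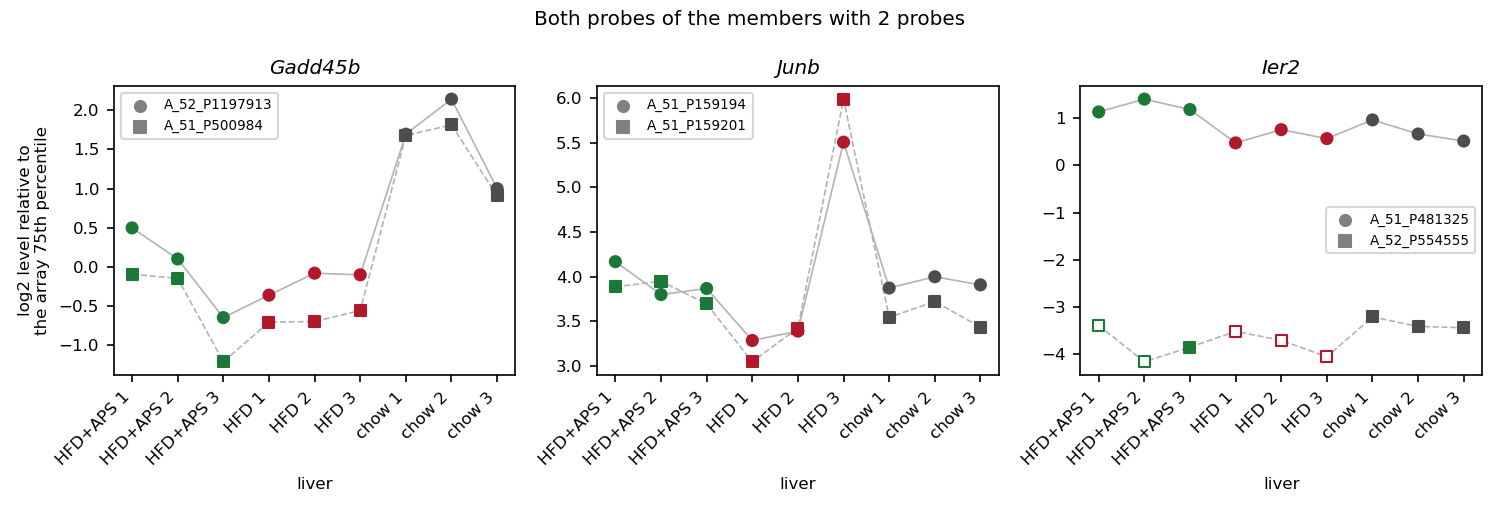
The log2 level relative to the array's 75th percentile (vertical axis) is plotted for both probes of Gadd45b, Junb and Ier2 in each liver (horizontal axis: HFD+APS, HFD and chow, 3 livers each), circles for the brighter probe and squares for the second, open where not well above background. Both Gadd45b probes are highest in the chow livers and both Junb probes peak in HFD 3, while the second Ier2 probe is open in 5 of 9 livers.

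Gadd45a, the family member known as a p53 target, had another pattern than Gadd45b. Its levels were -1.96, -0.83 and -0.80 in HFD+APS livers, -1.26, -0.44 and 1.22 in HFD livers, and -1.35, -1.59 and -2.03 in chow livers. All HFD livers were above all chow livers, but the nearest pair, HFD 1 and chow 1, was close, and HFD 3 alone was far above the rest. The log2 difference between HFD and chow livers was 1.50 ± 0.60 (2.82-fold, interval 0.12 to 2.87), with an unadjusted limma p of 0.0360 and an adjusted p of 0.132. It ranged over 0.81 to 2.05 when single arrays were left out and passed in none of these 9 fits. HFD+APS and HFD livers overlapped, with a difference of -1.03 ± 0.60 (adjusted p = 0.403), and so did HFD+APS and chow livers, with 0.46 ± 0.60 (adjusted p = 0.669).

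Gadd45g, the third member of the family, was a bright signal that scattered within every diet. Levels were 5.64, 3.64 and 6.58 in HFD+APS livers, 4.37, 4.23 and 6.25 in HFD livers, and 4.76, 5.06 and 6.12 in chow livers. Each group held livers both above and below those of the others, and the range over the 9 livers was 7.68-fold. The log2 differences were -0.37 ± 0.81 for HFD against chow (limma adjusted p = 0.793), then 0.34 ± 0.81 for HFD+APS against HFD (adjusted p = 0.863) and -0.03 ± 0.81 for HFD+APS against chow (adjusted p = 0.989). The last of these turned positive without chow 3 (0.38), without HFD+APS 2 (0.80) and with normexp background correction and quantile normalization (0.039).

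Among the AP-1 genes, Fos and Jun encode the partners that pair through leucine zippers to form the AP-1 factor. Fos stood at -2.82, -3.27 and -3.61 in HFD+APS livers, at -2.72, -3.11 and -1.50 in HFD livers, and at -1.15, -4.34 and -3.40 in chow livers. Chow 1 was the highest liver and chow 2 the lowest, so the chow group spanned the whole range of 9.07-fold. In chow 2 Fos was not well above background, where 1 of its 10 replicate spots was. Jun had -0.01, -1.37 and -1.10 in HFD+APS livers, -0.03, -0.17 and 0.21 in HFD livers, and 1.60, -0.56 and -0.36 in chow livers. Chow 1 was again the highest, HFD+APS 2 and 3 were the lowest, and the groups overlapped in every comparison. The replicate spots of Fos and Jun on 1 array differed far less than the livers did, with an SD of 0.0624 to 0.50 (median 0.123) over the arrays for Fos and an SD of at most 0.0983 for Jun.

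Junb, a Jun relative that often restrains AP-1 activity, had levels of 4.17, 3.80 and 3.87 in HFD+APS livers, 3.29, 3.39 and 5.51 in HFD livers, and 3.87, 4.0 and 3.91 in chow livers. HFD 3 was far above all others and HFD 1 and 2 were the lowest 2 of the 9. Its SD was 1.25 in HFD livers, beside 0.20 in HFD+APS livers and 0.065 in chow livers. The second Junb probe, which overlaps the first, gave 3.89, 3.95 and 3.70 in HFD+APS livers, 3.05, 3.43 and 5.99 in HFD livers, and 3.55, 3.72 and 3.44 in chow livers. It too placed HFD 3 highest.

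Egr1 encodes a zinc finger factor that is a textbook target of SRF and ELK. Its levels were 1.69, -0.68 and -0.35 in HFD+APS livers, -0.20, -0.38 and 2.17 in HFD livers, and 2.06, -1.01 and -0.09 in chow livers. One liver of each diet (HFD+APS 1, HFD 3 and chow 1) was high and the other 6 were lower, so the groups overlapped fully. Ier3, an early gene linked to cell survival and NF-kB signalling, had levels of -2.91, -4.08 and -4.31 in HFD+APS livers, -4.02, -3.32 and -1.63 in HFD livers, and -2.82, -3.18 and -3.60 in chow livers. HFD 3 was the highest, and the signal was well above background in 5 of the 9 livers (HFD+APS 1, HFD 3 and chow 1 to 3), so the low values of the other 4 have no firm order.

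Atf3 encodes a bZIP repressor induced by stress, among others through ATF4. Levels were -2.90, -3.53 and -3.70 in HFD+APS livers, -2.01, -2.08 and -0.78 in HFD livers, and -1.98, -3.32 and -3.12 in chow livers. All HFD+APS livers were below all HFD livers, and chow 1 lay among the HFD livers while chow 2 and 3 lay among the HFD+APS livers. The log2 difference between HFD+APS and HFD livers was -1.75 ± 0.45 (3.37-fold lower, interval -2.80 to -0.71), with an unadjusted limma p of 0.0046 and an adjusted p of 0.105. Leaving out single arrays moved it between -1.99 and -1.33, and it passed in none of the 9 fits. On the slide that held HFD+APS 1 with the 3 HFD arrays, the lone HFD+APS array was below all 3, with a difference of -1.28 (adjusted p = 0.431 with slide as a block, where that array is assumed to vary like the other groups). Between HFD and chow livers the difference was 1.18 ± 0.45 (unadjusted p = 0.0309, adjusted p = 0.121), and between HFD+APS and chow livers it was -0.57 ± 0.45 (adjusted p = 0.472).

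Ier2, an early gene whose product acts in the nucleus, varied least, with a range of 1.90-fold over the 9 livers. Its levels were 1.13, 1.40 and 1.18 in HFD+APS livers, 0.47, 0.75 and 0.57 in HFD livers, and 0.96, 0.66 and 0.51 in chow livers. All HFD+APS livers were above all HFD and all chow livers, while HFD and chow livers overlapped. The difference between HFD+APS and HFD livers was 0.64 ± 0.15 on the log2 scale (1.56-fold, interval 0.30 to 0.98, unadjusted limma p of 0.0023, adjusted p = 0.0768), and between HFD+APS and chow livers it was 0.52 ± 0.15 (unadjusted p of 0.0069, adjusted p = 0.0823). On the shared slide HFD+APS 1 was above all 3 HFD arrays by 0.53 from their mean (adjusted p = 0.314 with slide as a block, again with 1 array on the HFD+APS side).

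The second Ier2 probe was too dim to be set beside this difference. It had -3.39, -4.15 and -3.85 in HFD+APS livers, -3.51, -3.70 and -4.05 in HFD livers, and -3.21, -3.41 and -3.43 in chow livers. It was near the floor of the arrays, well above background only in HFD+APS 3 and chow 1 to 3. No fold is given for it against HFD livers, and between HFD+APS livers, 1 of 3 measured, and chow livers its difference was -0.45 ± 0.21 (limma over all kept probes, adjusted p = 0.244).

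Counted over the members, 1 of 10 genes passed in HFD against chow (Gadd45b, lower), where 10.9% of all features passed (4.55% higher and 6.38% lower). The groups did not overlap for 2 of 10 (Gadd45a and Gadd45b), against 38.9% of all features, and 3 of 10 had an unadjusted p under 0.05, against 31.4%. The members' share of calls was near that of all features, and their share of non-overlapping groups was below it. The median log2 difference was 0.17 over the members and -0.04 over all features, and it turned negative without HFD 3 (-0.40) or without chow 2 (-0.15).

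In HFD+APS against HFD, 0 of 10 passed in limma, against 1.5% of all features (0.476% higher and 1.03% lower). There 2 of 10 (Atf3 and Ier2) had an unadjusted p under 0.05, against 17.9%, and the same 2 had groups that did not overlap, against 24.5%. Of the 10 differences 7 were negative, with a median of -0.54, beside 0.00049 over all features, but without HFD 3 only 5 were negative and the median was 0.055. In HFD+APS against chow, 1 of 10 passed (Gadd45b, lower), against 3.47% of all features (0.958% higher and 2.51% lower), and 2 of 10 had an unadjusted p under 0.05, against 25.2%. The groups did not overlap for 2 of 10 (Ier2 and Gadd45b), against 30.9%, and the median difference was -0.19, beside -0.03 over all features, with -0.66 to -0.083 when single livers were left out. The 3 comparisons share their groups, so these counts are not independent.

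**Figure D3:**
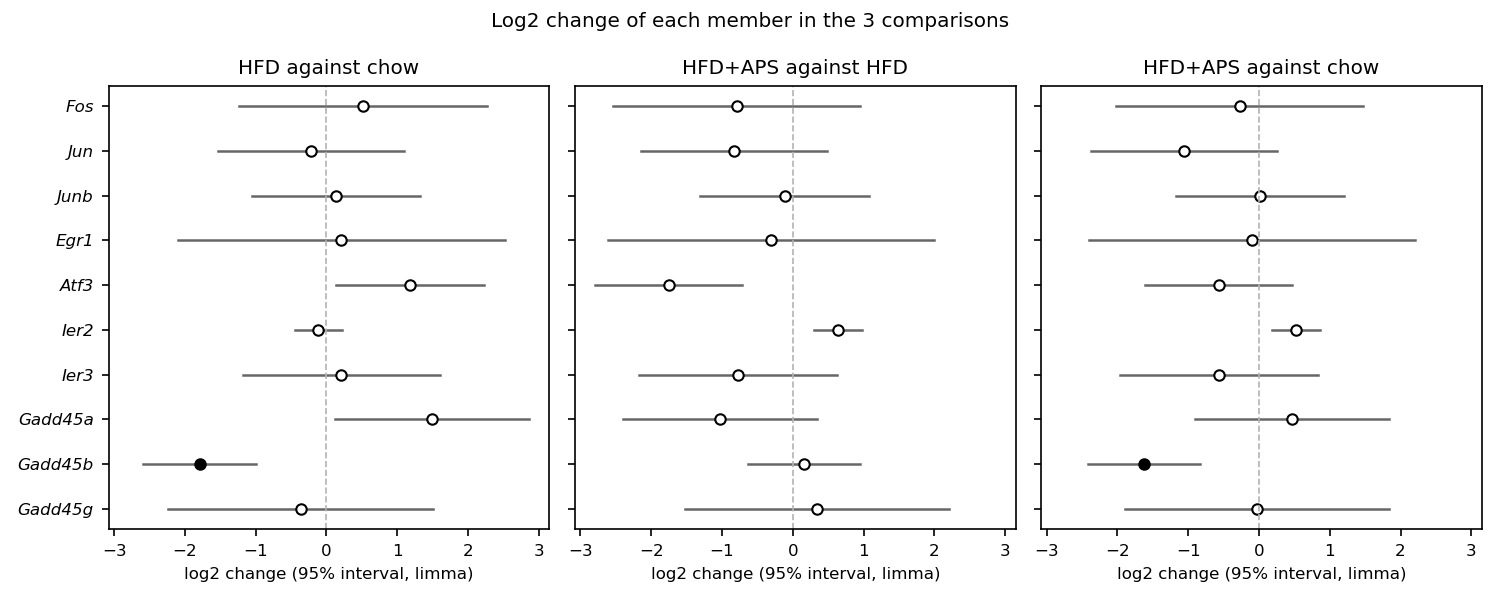
Points give the log2 change of each gene (horizontal axis) with its 95% interval from limma, in panels for HFD and for HFD+APS against chow with HFD+APS against HFD between them; filled points passed an adjusted p of 0.05 over all features. Only Gadd45b is filled, at -1.79 in the first panel and -1.63 in the last, and most other intervals cross 0.

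Fos, Jun, Junb, Egr1 and Ier3 passed in no comparison. For Fos the log2 differences were 0.52 ± 0.76 for HFD against chow (limma adjusted p = 0.679) and -0.79 ± 0.76 for HFD+APS against HFD (adjusted p = 0.618). Jun had -0.22 ± 0.57 (adjusted p = 0.825) and -0.83 ± 0.57 (adjusted p = 0.476) in these comparisons, and -1.05 ± 0.57 for HFD+APS against chow (adjusted p = 0.292). The corresponding differences were 0.13 ± 0.52 and -0.12 ± 0.52 for Junb, 0.21 ± 1.0 and -0.31 ± 1.0 for Egr1, and 0.21 ± 0.61 and -0.78 ± 0.61 for Ier3, all with an adjusted p of at least 0.536. In both comparisons the 95% interval of each of these 5 genes reached past a log2 difference of 1 in at least 1 direction.

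Ordered by their group means, HFD livers were highest for Fos, Junb, Egr1, Atf3, Ier3 and Gadd45a, chow livers for Jun, Gadd45b and Gadd45g, and HFD+APS livers for Ier2. Without HFD 3 the HFD livers were lowest for Junb and Egr1, so for these genes the rank rested on that liver. For Ier3, HFD 3 was the only HFD liver well above background, so its rank rested on that liver too. Without HFD 3, Ier3 had no firm order of HFD against chow livers. Neighbouring groups in the orders of all 9 livers overlapped for all members except Ier2, where HFD+APS livers were above the chow livers next to them, and Gadd45b, where chow livers were above the HFD+APS livers next to them.

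The highest livers of most members were HFD 3 and chow 1. HFD 3 was the highest of the 9 for 5 members (Junb, Egr1, Atf3, Ier3 and Gadd45a) and among the highest 2 for 8 of 10, and chow 1 was the highest for Fos and Jun and among the highest 2 for 6. HFD 3 exceeded the mean of HFD 1 and HFD 2 by 5.50-fold for Egr1, 4.49-fold for Junb, 4.20-fold for Gadd45a, 3.86-fold for Gadd45g, 2.67-fold for Fos, 2.39-fold for Atf3 and 1.24-fold for Jun. For Ier3, HFD 1 and 2 were not well above background, so no fold of HFD 3 over their mean is given. For Gadd45b this ratio was 1.09 and for Ier2 0.967, so HFD 3 was close to the mean of the other HFD livers for these genes. Averaged over the 7 immediate early genes after centring each, the level was 1.19 in HFD 3 and 0.91 in chow 1, and it lay between -0.60 and 0.31 in the other 7 livers. With both HFD 3 and chow 1 left out, the log2 change of Gadd45b was still -1.79 for HFD against chow (adjusted p = 0.105) and -1.59 for HFD+APS against chow (adjusted p = 0.106), with neither call kept.

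**Figure D4:**
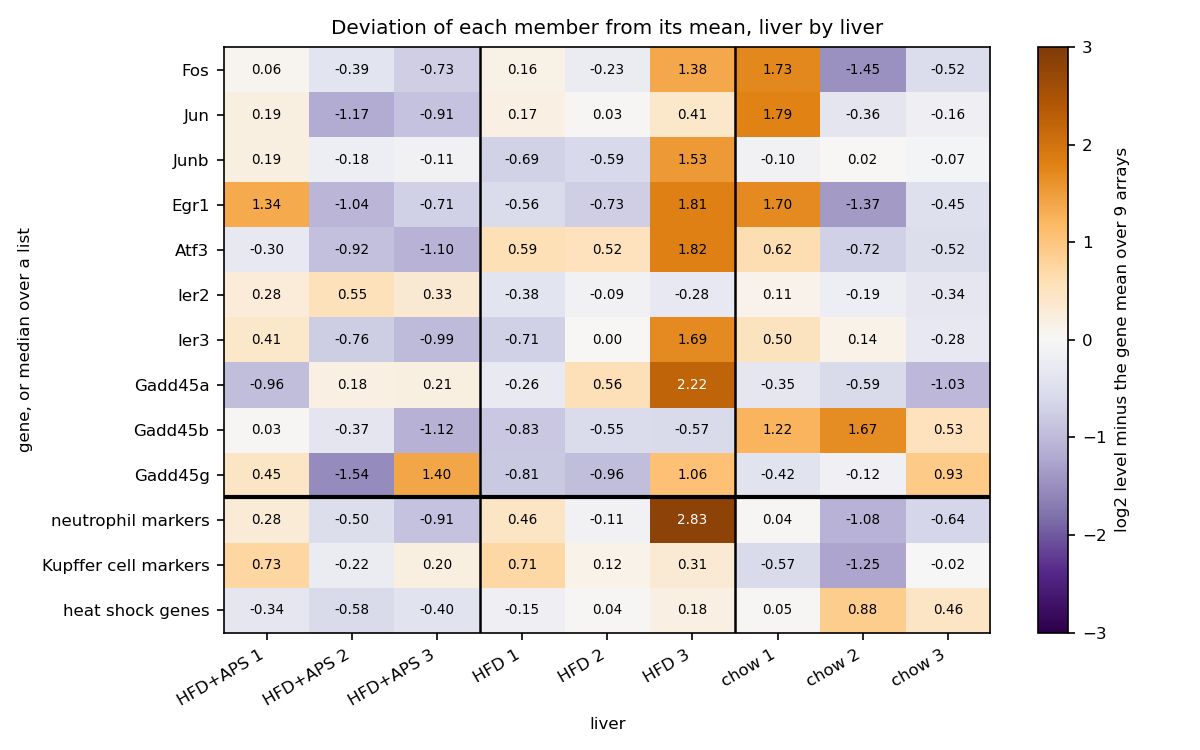
Each cell gives a gene's log2 level minus its mean over the 9 livers (colour scale and number; columns are HFD+APS, HFD and chow livers 1 to 3), and below the line the median over neutrophil markers, Kupffer cell markers and heat shock genes. HFD 3 is raised for most members and for the neutrophil markers (2.83), and Gadd45b is raised in all 3 chow livers.

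HFD 3 also stood apart in neutrophil markers. The median deviation of the 5 neutrophil markers measured (of 7 listed) was 2.83 in HFD 3 and between -1.08 and 0.46 in the other 8 livers, and 4 of the 5 were highest in HFD 3. Their summed relative signal was 2.85 to 8.89 in HFD+APS livers, 49.9 in HFD 3 beside 7.34 in HFD 1 and 4.69 in HFD 2, and 1.46 to 6.55 in chow livers. S100a8 and S100a9, the abundant calcium-binding proteins of neutrophils, had levels of 2.89 and 5.36 in HFD 3, each the highest of the 9 livers. Of the other neutrophil markers, Csf3r was not well above background in 4 livers, Mpo in 3 and Retnlg in 1. The part of these cells in the members' levels was not tested. Of the 6 hepatocyte markers measured, Apoa1, Hnf4a and Cps1 were lowest of the 9 livers in HFD 3. The median deviation of the 6 markers was -0.34 there, below the -0.17 to 0.17 of the other livers, and their summed relative signal was 1389 to 1815 in HFD+APS livers, 1298 in HFD 3 beside 1681 in HFD 1 and 1499 in HFD 2, and 1575 to 1806 in chow livers. The part of this in the members' levels was not tested. Alb, the albumin gene that marks hepatocytes, had a level of at least 9.42 in every liver. The median deviation of the Kupffer cell markers was 0.31 in HFD 3, below 0.71 in HFD 1 and 0.73 in HFD+APS 1.

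Of 43 markers of liver cells, 5 (11.6%) passed between HFD and chow livers, near the 10.9% of all features, and 39.5% had an unadjusted p under 0.05, against 31.4%. In HFD livers relative to chow livers the 7 Kupffer cell markers (resident macrophages) had a median log2 difference of 1.05 with 0 calls in limma and 5 at an unadjusted p under 0.05, and 1 of the 6 lymphocyte markers passed (Cd4, lower, adjusted p = 0.0404). Cd4 was not well above background in any HFD liver, so no fold is given for it, and Cd8a was above background only in chow livers. The 6 sinusoidal endothelial markers had 0.54 with 2 calls (Clec4g and Oit3, higher), and the 6 stellate cell markers had 0.41 with 2 calls (Col1a1 and Col3a1, higher). The 6 hepatocyte markers had -0.24 with 0 calls and 1 at an unadjusted p under 0.05. In HFD+APS livers relative to HFD livers 1 marker passed (Cps1 of hepatocytes, higher), and relative to chow livers none of the 43 markers did. With 1 array left out the call was kept in 1 of 9 fits for Clec4g, 2 for Cd4, 2 for Oit3, 3 for Cps1, 5 for Col1a1 and 8 for Col3a1. The other probes of Clec4g and Col3a1 had differences of -0.03 and -0.22 between HFD and chow livers. Summed Kupffer marker signals were 46.5 to 99.5 in HFD+APS livers, 59.5 to 93.6 in HFD livers and 35.6 to 53.4 in chow livers, so the ranges of HFD and chow livers did not overlap. The lowest level called above background was higher on the slide of the HFD arrays (-3.51 to -3.05) than on the chow slide (-4.30 to -4.03), so dim lymphocyte markers are not compared further. The 4 cholangiocyte and 3 erythroid markers gave 0 calls in limma in each comparison and none at an unadjusted p under 0.05. The part of these cells in the level of Gadd45b was not tested.

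Heat shock genes, like Gadd45b, had lower group means on both high-fat diets than on chow, but liver by liver they did not follow Gadd45b. Their summed relative signal was 196, 320 and 254 in chow 1 to 3 and 211 to 225 in HFD livers. Chow 1 was thus below every HFD liver, while its Gadd45b level was 1.70. Between HFD+APS and HFD livers the log2 difference of Gadd45b was 0.16, without the fall seen in heat shock genes. All 8 heat shock genes measured had negative differences in each of the 3 comparisons, with medians of -0.40 for HFD against chow, -0.41 for HFD+APS against HFD and -0.80 for HFD+APS against chow. Hspa1a, an inducible chaperone of the HSP70 family, had levels of -1.17, -1.52 and -1.37 in HFD+APS livers, -0.16, -0.02 and 1.29 in HFD livers, and 1.69, 1.94 and 1.73 in chow livers. Hspa1a fell by 3.14 ± 0.34 on the log2 scale in HFD+APS livers relative to chow livers (limma adjusted p = 0.0109; lost without chow 2 or chow 3). In HFD livers it fell by 1.41 ± 0.34 relative to chow livers (adjusted p = 0.0393), a call kept in 2 of 9 fits with 1 array left out. Its near-identical copy Hspa1b, whose transcripts these probes may not separate, had -2.82 ± 0.34 in HFD+APS against chow (adjusted p = 0.0125, kept in 6 of 9 fits) and -1.32 ± 0.34 in HFD against chow (adjusted p = 0.0457, kept in 2 of 9). The part of a heat shock response in the level of Gadd45b was not tested.

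The wider pathway was read in 7 lists with 105 measured genes, chosen with earlier results of these data known. In HFD against chow 1 of the 105 passed upwards and 7 passed downwards, in HFD+APS against HFD 0 passed in limma in either direction, with 9 at an unadjusted p under 0.05, and in HFD+APS against chow 0 passed upwards and 3 downwards. These shares are below the 10.9%, 1.5% and 3.47% over all features.

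Upstream of the early genes, 26 of 26 listed SRF, ELK and MAP kinase genes were measured, and in HFD against chow 1 rose and 1 fell. Map2k1, the kinase MEK1 that activates ERK, rose by 0.59 ± 0.12 in HFD livers relative to chow livers (limma adjusted p = 0.0229, lost without chow 2, chow 3, HFD 2 or HFD 3). Mapk8, the kinase JNK1 that phosphorylates Jun, fell by 0.46 ± 0.10 (adjusted p = 0.0307, kept in 2 of 9 fits with 1 array left out). Egfr, the receptor of EGF, had a difference of 1.39 ± 0.33 between HFD+APS and HFD livers and did not pass (adjusted p = 0.0803). Its levels were 4.95, 4.82 and 4.66 in HFD+APS livers, 3.01, 2.95 and 4.30 in HFD livers, and 4.36, 4.44 and 4.57 in chow livers. HFD 3 was close to the chow livers, so the difference rested mostly on HFD 1 and 2.

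The other AP-1 genes (10 of 11 measured) gave 0 calls in limma in each comparison. At an unadjusted p under 0.05 were 2 genes in HFD against chow, 0 in HFD+APS against HFD and 2 in HFD+APS against chow. The shares of all features at that p were 31.4%, 17.9% and 25.2%. The other immediate early transcription factors (15 of 18 measured) gave 0 calls in limma as well, with 1, 2 and 1 at that p in the same order. Egr2, a relative of Egr1, had the smallest p of this list in both comparisons with HFD. Egr2 had -3.58, -4.55 and -4.42 in HFD+APS livers, -2.21, -2.87 and -1.38 in HFD livers, and -3.19, -4.75 and -3.97 in chow livers, so all HFD livers were above all others. Groups did not overlap for 38.9% of all features in HFD against chow and 24.5% in HFD+APS against HFD. Its signal was well above background in 0 of 3 HFD+APS livers, 3 of 3 HFD livers and 1 of 3 chow livers. No fold is given for HFD+APS livers against HFD livers, since no HFD+APS liver was well above background (limma adjusted p = 0.0856, measured values). Against chow, where 2 of 3 livers were likewise dim, the adjusted p was 0.0513.

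Of 27 measured early response genes and feedback inhibitors (29 listed), 3 fell in HFD livers relative to chow livers. This share is near the 10.9% of all features that passed there (6.38% lower). In the other comparisons 0 passed in limma. At an unadjusted p under 0.05 were 2 in HFD+APS against HFD and 5 in HFD+APS against chow, beside 17.9% and 25.2% of all features. Nfkbia, the inhibitor that holds NF-kB in the cytoplasm, fell by 0.59 ± 0.13 (adjusted p = 0.0302, kept in 3 of 9 fits with 1 array left out). Spry2, an inhibitor of receptor tyrosine kinase signalling, fell by 0.88 ± 0.23 (adjusted p = 0.0453, kept in 2 of 9). Socs3, the feedback inhibitor of cytokine signalling, fell by 0.57 ± 0.15 (adjusted p = 0.0477, kept in 1 of 9), but its other probe had a difference of 1.17 in the opposite direction.

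Among the Gadd45 partners (9 of 11 measured), Tdg, the DNA glycosylase that acts with Gadd45a in DNA demethylation, fell by 0.66 ± 0.14 in HFD livers relative to chow livers (adjusted p = 0.0283, kept in 3 of 9 fits with 1 array left out). In HFD+APS livers it fell by 0.67 ± 0.14 relative to chow livers (adjusted p = 0.0468, kept in 1 of 9). Its other probe had differences of -0.09 and 0.03 there. The ATF4 and ATF3 stress branch (10 of 10 measured) gave 0 calls in limma in each comparison, with 5 genes at an unadjusted p under 0.05 in HFD against chow, 1 in HFD+APS against HFD and 2 in HFD+APS against chow. Over all features 31.4%, 17.9% and 25.2% had such a p in these comparisons. Chac1, a glutathione-degrading enzyme and ATF4 target, had the smallest p, with a difference of 2.33 ± 0.65 between HFD and chow livers (adjusted p = 0.0550). Its levels were 1.50, 1.13 and 1.47 in HFD+APS livers, 1.67, 1.18 and 2.23 in HFD livers, and -2.35, 0.09 and 0.36 in chow livers. The chow livers did not overlap with the others, as for 38.9% of all features in HFD against chow and 30.9% in HFD+APS against chow. The list as a whole did not follow Chac1. In HFD against chow 4 of its 10 differences were positive, with a median of -0.11. The list's summed relative signal was 168 to 255 in HFD+APS livers, 136 to 156 in HFD livers and 182 to 214 in chow livers.

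Likeness of pattern was measured as the root mean square difference of centred log2 levels over the 9 livers. Among the features most like the mean of the 7 immediate early genes, which spans 1.80, were Cd34 (0.169), Lsp1 (0.213), Mbp (0.214) and Emb (0.220). For Gadd45a, which spans 3.25, they were Bcl3 (0.460), Spp1 (0.462) and 1700120E14Rik (0.473). For Gadd45b, which spans 2.79, they were Ston1 (0.359), Lgals6 (0.370) and Krt14 (0.380). For Gadd45g the 3 nearest features, at 0.508, 0.595 and 0.626, were clones without a gene name in the RefSeq table.

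The arrays behind these values differed by slide. Chow 1 to 3 were on 1 slide, HFD 1 to 3 and HFD+APS 1 on another, and HFD+APS 2 and 3 on the last. Spots called well above background made up 63.5 to 64.5% of the spots for HFD+APS 2 and 3, 50.4 to 54.1% for the HFD arrays and HFD+APS 1, and 61.5 to 68.4% for the chow arrays. With slide as a random block, Gadd45b had a log2 change of -1.85 ± 0.39 for HFD against chow (limma adjusted p = 0.0445) and -1.61 for HFD+APS against chow (adjusted p = 0.0923, which did not pass). On the shared slide, HFD+APS 1 stood above the mean of the HFD arrays by 0.68 for Gadd45b (adjusted p = 0.567) and below it by 1.80 on the log2 scale for Gadd45a (adjusted p = 0.372), with the same limit of 1 HFD+APS array.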

How the data were processed

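Liver RNA of 9 mice was hybridised to 9 single-colour (Cy3) arrays. Per the file headers, the authors' scanner software (Feature Extraction 10.7.1.1, 10.7 in the submitters' processing notes) gave each spot a processed signal, an intensity that is background-subtracted and not normalized between arrays. A deposited value table gives log2 values made by the authors (column medians 4.98 to 5.00), which correlated with the log2 processed signals at 0.9969 or more on each array. Its normalization is not given in the sources used here, and it served as an alternative.

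Here outlier spots and the 1639 control spots among 45018 were dropped, log2 values of replicate spots were averaged, and levels were set relative to the 75th percentile of their array. Of 41174 probes, 26478 were well above background on at least 3 of the 9 arrays, and each gene was read by its brightest kept probe. All 13 member probes passed this filter. Of all probes, the RefSeq names came from the probe's accession for 27668, from a further accession for 85, from the symbol for 5533 and from a synonym for 460. The remaining 7428 kept the array's own name. The 3 groups were compared in limma 3.58.1 (R 4.3.3 with the data.table package, version 1.17.8) with 1 fit over 9 arrays, 6 residual and 2.21 prior degrees of freedom, and a 2-sided test with Benjamini-Hochberg adjustment over 17636 features, threshold 0.05. A kept value was missing 5 times and was left out of its feature's fit. The fit was tested on simulated data. Signals of members were not saturated, and the array number limits the precision.

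Genes named are the 10 members with every probe, up to 4 genes with the smallest p per list, and the nearest features by pattern, 1 of which is not reported here. The members, the 7 pathway lists, the 8 marker lists and the tests were chosen with earlier results of these data known. Alternatives changed the background correction, normalization, filter, probe rule, samples fitted, slide, replicate block and arrays left out.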

Additional observations from a re-analysis of the deposited data

How the results depend on the processing

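With all settings as reported, 1929 features and 1 member were called in HFD against chow, 265 and 0 in HFD+APS against HFD, and 612 and 1 in HFD+APS against chow. Without the filter on dim probes the features called were 798, 79 and 224 in these comparisons, and with slide as a random block 684, 164 and 165. Fitting only the 2 groups compared gave 25 features in HFD+APS against HFD and 347 in HFD+APS against chow. Whether the same replicate numbers in the 3 groups pair the livers is not known. The 9 same-numbered pairs correlated at -0.17 to 0.16 (3 over 0.1) and 18 others at -0.19 to 0.22 (3 over 0.1). With 3 livers per group these correlations cannot settle it. The replicate block gave 1324, 82 and 296 features. Under each of these 4 settings the members called in HFD+APS against chow were 0, with adjusted p of 0.0763, 0.0923, 0.0837 and 0.0560 for Gadd45b (no filter, random slide block, 2 groups and replicate block), while HFD against chow still had 1 member called. The replicate block changed no other call on members. Leaving out 1 array gave 365 to 2711 features and 0 to 1 members in HFD against chow, 51 to 578 and 0 in HFD+APS against HFD, and 21 to 1607 and 0 to 1 in HFD+APS against chow. Leaving out HFD 3 and chow 1 together, chosen after seeing the data, gave 193, 26 and 116 features and 0 members in each comparison. The cause of these losses was not tested. Some of the settings held fewer arrays or more probes, while the slide and replicate blocks used all 9 arrays.

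Gadd45b against chow, and the uncalled change of Atf3 in HFD+APS against HFD, kept their direction under every alternative run. This was not particular to Atf3. With single arrays left out, other uncalled changes kept 1 sign, among them Gadd45a in HFD against chow (0.81 to 2.05). In HFD+APS against HFD, Ier2 (0.56 to 0.72), Fos (-1.13 to -0.32) and Jun (-1.24 to -0.56) did so too. Signs turned for other uncalled changes. Without HFD 3 and chow 1, HFD against chow was 0.36 for Jun, -0.62 for Junb and 0.026 for Ier2. Ier3 was then at -0.28, but no HFD liver left was well above background for it, so that sign is not firm. HFD+APS against HFD was then 0.61 for Junb and 0.51 for Egr1, and HFD+APS against chow was 0.63 for Fos, -0.0085 for Junb and 0.77 for Egr1. On the shared slide, HFD+APS against HFD was 0.11 for Junb, 1.16 for Egr1 and 0.082 for Ier3. For HFD+APS against chow, Junb was -0.0046 with normexp, -0.014 with quantile normalization and -0.031 in the authors' values, and Gadd45g was 0.039 with normexp. With single arrays left out, HFD against chow spanned -0.17 to 1.42 for Fos, -0.61 to 0.46 for Jun, -0.59 to 0.52 for Junb, -0.61 to 1.08 for Egr1, -0.21 to 0.0096 for Ier2, -0.47 to 0.73 for Ier3 and -1.02 to 0.035 for Gadd45g. The -0.47 of Ier3 came without HFD 3 and has the same limit of dim HFD livers. HFD+APS against HFD spanned -0.50 to 0.61 for Junb, -1.05 to 0.51 for Egr1, -0.092 to 0.48 for Gadd45b and -0.31 to 1.16 for Gadd45g. HFD+APS against chow spanned -0.96 to 0.63 for Fos, -0.093 to 0.091 for Junb, -0.84 to 0.77 for Egr1 and -0.67 to 0.80 for Gadd45g. Slide as a fixed block could not be fitted against chow, whose slide holds no other group. Fos in chow 2, Ier3 in 4 livers, and the second Ier2 probe and Egr2 in 5 each were not well above background, which limits their fold changes.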
